A study of Canis lupus familiaris with 7 samples.

Results

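The genes described here serve the storage of fat in adipocytes: ADIPOQ, PLIN1, PLIN4, PLIN5, FABP4, CIDEC, LPL, LIPE, PPARG and CD36. They were picked by symbol, not by level, and 7 of the 10 had a row among the 24580 genes of the RNAseq table. PLIN1, CIDEC and PPARG represent the adipocyte, with 3 of its 6 listed genes present. PLIN4, PLIN5, LPL and CD36 are also used by skeletal muscle, and 4 of these 4 were present. ADIPOQ, FABP4 and LIPE had no row under these symbols and were not analysed here, so adiponectin, the most particular product of the adipocyte, contributed no value. RNA came from dog tissue, with 4 non-tumor samples of grossly non-malignant bone (N1, N3, N8 and N9) and 3 osteosarcoma (OSA) tumor samples (T1, T3 and T10). The labels give no treatment, age or genotype for any sample. Each sample was a small piece of whole tissue taken at amputation or after euthanasia, with the non-tumor bone cut next to a tumor, so every value is an average over all cell types in the piece. Values are FPKM, fragments corrected for transcript length and for the fragments mapped in the library, which allow levels of different genes to be set side by side per length.

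Fat is kept as triglyceride in lipid droplets, and the perilipins are the proteins that coat these droplets. Adipocytes carry perilipin 1 on a single large droplet, whereas perilipin 5 coats the small droplets that feed the mitochondria of oxidative muscle, and perilipin 4 is found in both tissues. The marrow of long bones contains adipocytes among its blood-forming cells, and skeletal muscle attaches to the outer surface of bone.

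The non-tumor samples were not alike in the cells they held. The 22 skeletal muscle markers present, among them the contractile genes ACTA1, MYL1 and TNNT3, summed to 126 FPKM in N1 and 1475 FPKM in N3, but to 112664 FPKM in N8 and 86354 FPKM in N9. In the OSA tumor samples they summed to between 30 and 51.8 FPKM. No muscle marker was at 0 in N1, N3, N8 or T10, while 1 was at 0 in T1 and 2 each in T3 and N9. In N9 one of these was CKM, muscle creatine kinase, which was listed at 35044 FPKM in N8, so an exact 0 in this table need not mean absence of the transcript. The 9 erythroid markers summed to 3113 FPKM in N3 and 4598 FPKM in N8, against 38.1 FPKM in N1 and 210 FPKM in N9, and to between 33.0 and 122 FPKM in the tumors. The 9 osteoblast markers were highest in N1, at 15491 FPKM, followed by T1 at 11313 FPKM, where COL1A1 was listed at 0. Without COL1A1 the order turned, with 6882 FPKM in N1 and 11313 FPKM in T1. All 9 ran from 92.7 to 1070 FPKM in N3, N8 and N9. The part of this difference in cell content in the values below was not tested, and a smaller number of adipocytes and less RNA per adipocyte cannot be told apart in whole tissue.

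**Figure D1:**
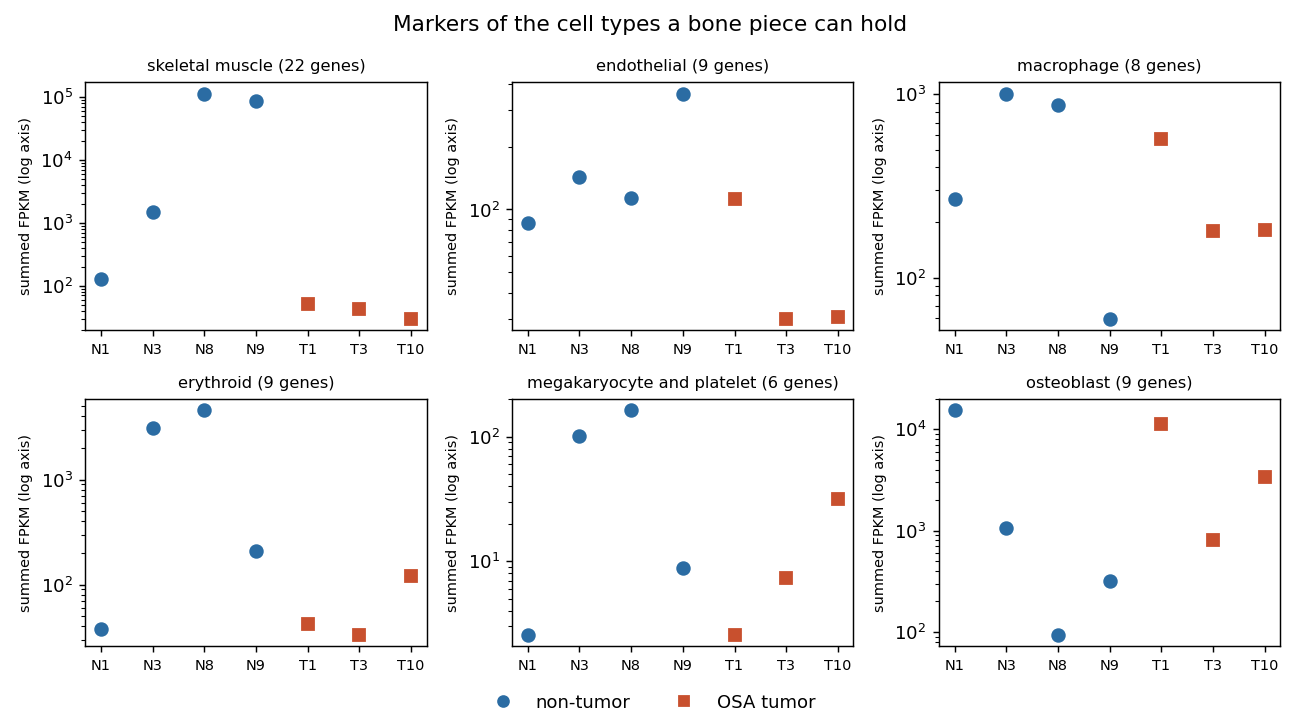
Summed FPKM, on log axes, of the marker genes of 6 cell types in each of the 4 non-tumor (circles) and 3 OSA tumor (squares) samples. Skeletal muscle markers were highest in N8 (112664 FPKM) and N9 (86354 FPKM), erythroid markers in N8 and N3, endothelial markers in N9, and osteoblast markers in N1 and T1, where 1 of them, COL1A1, was listed at 0 in T1.

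Among the lipid storage genes, PLIN1, CIDEC, PLIN4 and LPL were lower in OSA tumor than in non-tumor tissue. PLIN1 and CIDEC, the genes most typical of adipocytes, stood above 5 FPKM in N3, N8 and N9 and below 1 FPKM in every tumor. PLIN4 and PLIN5 were high in N8 and N9 alone. LPL and CD36 were the most abundant genes in both groups, and PPARG had its highest values in N1 and N3. All 7 genes had a lower mean in tumor, 4 of the 7 passed the threshold (a log2 difference of 1 or more in size and an unadjusted limma p under 0.05) as lower in tumor, and 0 passed as higher. Without both N8 and N9 there were 3 (PLIN1, PPARG and PLIN4). Over all 13507 genes tested, 3.58% were called lower and 6.86% were called in either direction. The adjusted limma p was 0.693 for each of the 7 genes, and 0 of the 13507 genes had an adjusted p under 0.05 although 927 had an unadjusted p under 0.05.

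**Figure D2:**
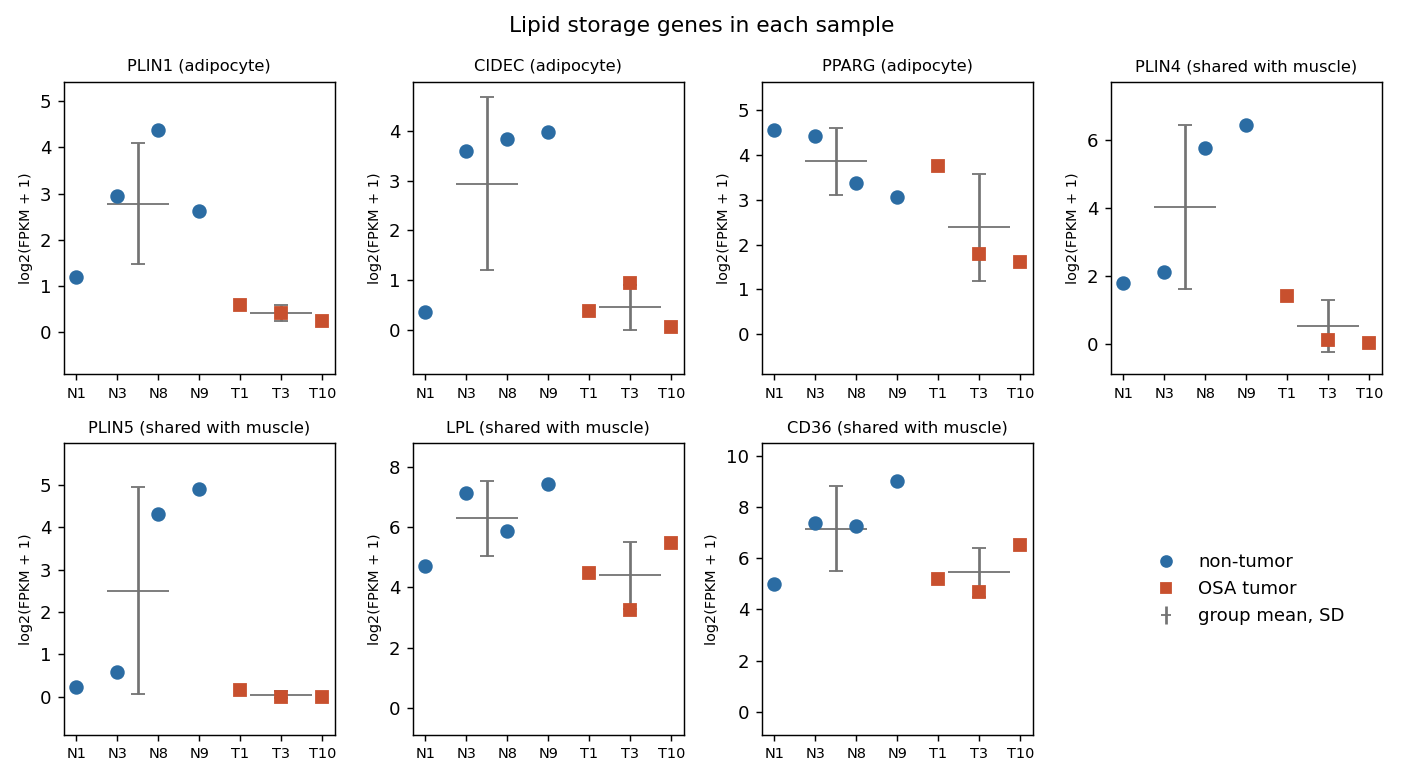
Level of each of the 7 lipid storage genes as log2(FPKM + 1) in the 4 non-tumor and 3 OSA tumor samples, with a horizontal line for the mean of each group and a bar for its SD on that scale. PLIN1 and CIDEC were high in N3, N8 and N9, PLIN4 and PLIN5 only in N8 and N9, and PPARG was highest in N1 and N3.

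PLIN1 (ENSCAFG00000011986, chromosome 3 from 52659490 to 52670353 in CanFam3.1) encodes perilipin 1, which controls the access of lipases to the adipocyte droplet. It was at 1.28 FPKM (N1), 6.69 (N3), 19.6 (N8) and 5.14 (N9), and at 0.5 FPKM (T1), 0.345 (T3) and 0.179 (T10). All tumor samples were below all non-tumor samples, and N8 alone held 59.9% of the non-tumor sum. The means were 8.18 ± 7.95 FPKM in non-tumor (SD, n = 4) and 0.341 ± 0.161 FPKM in tumor (SD, n = 3), a ratio of 24.0. On the log2(FPKM + 1) scale, which understates the change of genes with low values, the difference was -2.36 (SE 0.71). The limma p was 0.00861 and the exact two-sided permutation p was 0.0571, the smallest value that the 35 splits of 7 samples into 4 and 3 allow. PLIN1 passed the threshold whichever sample was left out, with log2 differences from -2.89 to -1.83, and without both N8 and N9, the samples rich in muscle transcripts, with a difference of -1.65. It did not pass in a fit on N1, N3, T1 and T3 with the shared sample number as a block (-1.56), and the same was true of CIDEC (-1.33), PLIN4 (-1.20) and LPL (-2.05).

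CIDEC (ENSCAFG00000005266, chromosome 20 from 8386258 to 8402286) encodes a protein that fuses small droplets into the large droplet of the adipocyte. Its values were 0.273 FPKM (N1), 11.2 (N3), 13.3 (N8) and 14.9 (N9), against 0.291 FPKM (T1), 0.922 (T3) and 0.0318 (T10). N3, N8 and N9 lay close together and far above the tumors, whereas N1 lay within the tumor range. The means were 9.93 ± 6.61 FPKM in non-tumor (SD, n = 4) and 0.415 ± 0.458 FPKM in tumor (SD, n = 3), with a log2 difference of -2.50 (SE 0.88, limma p = 0.0189) and an exact permutation p of 0.171. Without N1 the difference was -3.36. The call was lost without N3, N8, N9, T1 or T10, where the difference ran from -2.45 to -2.15, and without both N8 and N9, where it was -1.53.

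PPARG (ENSCAFG00000004991, chromosome 20 from 6134563 to 6208159) encodes the nuclear receptor that directs the formation of adipocytes and is also present in macrophages and other cells. It followed another order, at 22.8 FPKM (N1), 20.6 (N3), 9.42 (N8) and 7.34 (N9), and at 12.6 FPKM (T1), 2.47 (T3) and 2.03 (T10). T1 was above N8 and N9, so the groups overlapped. The means of 15.1 ± 7.80 FPKM in non-tumor (SD, n = 4) and 5.70 ± 5.97 FPKM in tumor (SD, n = 3) differed by -1.48 on the log2 scale (SE 0.67) and did not pass the threshold. The limma p was 0.0531 and the exact permutation p was 0.171. PPARG passed without N9 (-1.74), without T1 (-2.17) and without both N8 and N9 (-2.12). Relative to PLIN1, PPARG was 17.9 times as high in N1 and 3.08 times in N3, but 0.481 times in N8 and 1.43 times in N9. In the tumors this ratio ran from 7.15 to 25.2, and N1 lay within that range.

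PLIN4 (ENSCAFG00000015323) and PLIN5 (ENSCAFG00000019018) are listed on chromosome 20 with the same interval, from 55078111 to 55202965, which 7 listed genes share. How fragments were divided among the genes of this interval is not given in the sources used here. PLIN4 was at 2.46 FPKM (N1), 3.31 (N3), 52.9 (N8) and 86.6 (N9), and at 1.63 FPKM (T1), 0.0719 (T3) and 0.0216 (T10). PLIN5 was at 0.171 FPKM (N1), 0.491 (N3), 18.9 (N8) and 28.9 (N9), and at 0.117 FPKM in T1, while T3 and T10 were listed at 0. Both perilipins were thus high only in N8 and N9, and all 3 tumors were below all 4 non-tumor samples for each of them. Including PLIN1, 3 of the 7 genes had groups without overlap in this direction, against 2.81% of all genes tested.

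The log2 difference of PLIN4 was -3.52 (SE 1.16), from means of 36.3 ± 41.0 FPKM in non-tumor (SD, n = 4) and 0.576 ± 0.917 FPKM in tumor (SD, n = 3). The call was lost without T3 (-3.31) or without T10 (-3.28). Without both N8 and N9 it passed with a smaller difference, -1.44. For PLIN5 the difference was -2.45 (SE 1.15), which did not pass the threshold, from means of 12.1 ± 14.2 FPKM (SD, n = 4) and 0.0389 ± 0.0673 FPKM (SD, n = 3). Without both N8 and N9 the difference of PLIN5 was -0.35, and it passed without N1 (-3.21) or without N3 (-3.10). The limma p was 0.0134 for PLIN4 and 0.06 for PLIN5, and the exact permutation p was 0.0571 for each of these 2 perilipins.

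LPL (ENSCAFG00000010161, chromosome 25 from 37079873 to 37103255) encodes lipoprotein lipase, which frees fatty acids from circulating lipoproteins at the vessel wall of fat and muscle. Its values were 25.3 FPKM (N1), 139 (N3), 57.9 (N8) and 174 (N9), against 21.4 FPKM (T1), 8.55 (T3) and 43.6 (T10). N1 lay between the tumor samples, and the other non-tumor samples lay above them. The means were 99.0 ± 69.0 FPKM in non-tumor (SD, n = 4) and 24.5 ± 17.7 FPKM in tumor (SD, n = 3), a log2 difference of -1.89 (SE 0.78, limma p = 0.0375) with an exact permutation p of 0.114. The call held without N1 or without T10 and was lost without N3, N8, N9, T1 or T3, where the difference reached -1.31 at its smallest. It was also lost when the samples were set to an equal FPKM total (-1.69) and without both N8 and N9 (-1.52).

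CD36 (ENSCAFG00000006401, chromosome 18 from 20299760 to 20376138) encodes a fatty acid translocase carried by adipocytes, muscle fibres, capillary endothelium, macrophages and platelets. It was at 30.5 FPKM (N1), 165 (N3), 151 (N8) and 508 (N9), and at 35 FPKM (T1), 24.4 (T3) and 89.6 (T10). N9 stood above all other samples, and N1 again lay within the tumor range. The means of 214 ± 205 FPKM in non-tumor (SD, n = 4) and 49.6 ± 35 FPKM in tumor (SD, n = 3) gave a log2 difference of -1.70 (SE 0.89, limma p = 0.0874), which did not pass the threshold, and an exact permutation p of 0.171. CD36 passed only when N1 was left out (-2.43), and its difference was -0.73 without both N8 and N9. LPL and CD36 had the same 4 highest samples in the same order, N9, N3, N8 and T10.

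The markers of the other cells that carry CD36 moved with it in part. The 9 endothelial markers summed to 359 FPKM in N9, against 85.8 FPKM in N1, 143 in N3 and 113 in N8, and to 112 FPKM (T1), 30 (T3) and 30.5 (T10). Their highest sample was the highest for CD36 and LPL. The 8 macrophage markers summed to 270 FPKM (N1), 1010 (N3), 879 (N8) and 59.7 (N9), and to between 179 and 572 FPKM in the tumors, so they were lowest where CD36 was highest. The 6 megakaryocyte and platelet markers summed to 101 FPKM in N3 and 163 FPKM in N8, against 2.57 FPKM in N1, 8.83 in N9 and 2.55 to 31.5 in the tumors. No endothelial or macrophage marker was at 0 in any sample, while 1 or 2 of the megakaryocyte and platelet markers were at 0 in N1, T1 and T3. The part of these cells in the level of CD36 was not tested. Of the marker lists, 19 of 22 skeletal muscle, 6 of 9 erythroid and 4 of 9 endothelial genes were called lower in tumor, 0 of 8 macrophage and 0 of 5 megakaryocyte and platelet genes tested were called, and 1 of 9 osteoblast genes was called higher.

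**Figure D3:**
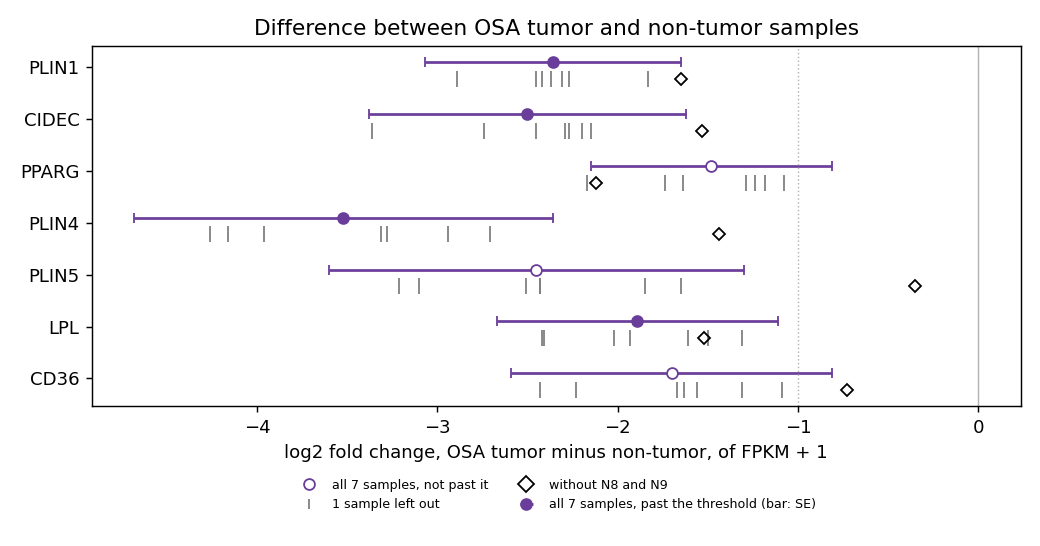
Log2 difference (OSA tumor minus non-tumor, on log2(FPKM + 1)) of the 7 lipid storage genes with its standard error, for the 4 non-tumor and 3 tumor samples. Filled circles passed the threshold, grey ticks leave out 1 sample each, and open diamonds leave out N8 and N9 together. All 7 estimates lie below 0, from -3.52 for PLIN4 to -1.48 for PPARG, and PLIN1, CIDEC, PLIN4 and LPL passed the threshold.

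The median log2 difference of the 7 genes was -2.36, beside -0.02 over all genes tested. It was -2.36 for the 3 adipocyte genes and -2.17 for the 4 genes shared with muscle, of which 2 of 3 and 2 of 4 were called lower. All 7 genes passed the filter of a mean of at least 1 FPKM. PLIN1, CIDEC, PLIN4 and PLIN5, whose tumor means were below 1 FPKM, reached it through the non-tumor samples, so their counts and medians describe these samples and are not evidence about the list. The labels do not state that samples of a group came from different dogs, and the p-values measure the spread between these pieces of tissue.

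In non-tumor tissue the order of levels ran from CD36 and LPL through PLIN4, PPARG, PLIN5 and CIDEC to PLIN1, and each neighbouring pair of means differed by less than the larger SD of that pair. In OSA tumors CD36 and LPL were again highest, followed by PPARG, and PLIN4, CIDEC, PLIN1 and PLIN5 all had means below 1 FPKM. The range within the non-tumor group was widest for PLIN5, with 170 times as much in the highest as in the lowest sample. It was 54.6 times for CIDEC, 35.2 for PLIN4, 16.7 for CD36, 15.4 for PLIN1 and 6.87 for LPL, and narrowest for PPARG at 3.11 times.

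N3 had far lower muscle markers than N8 and N9, and it set the adipocyte genes apart from the perilipins shared with muscle. The summed muscle markers were 76.4 times as high in N8 as in N3, and 58.5 times as high in N9 as in N3. Over the 17 markers with no 0 in any sample these factors were 66.6 and 77.2, so the order of N8 and N9 turned. Over the same steps CIDEC was 1.18 and 1.32 times as high, and PLIN1 2.93 and 0.769 times as high. PLIN4 was 16.0 and 26.2 times as high, and PLIN5 38.6 and 59.0 times as high, in N8 and N9 respectively. Between N3 and the muscle-rich samples, CIDEC and PLIN1 were therefore higher by no more than 2.93 times, while PLIN4 and PLIN5 were higher by at least 16.0 times. LPL was 0.416 times in N8 and 1.25 times in N9 its level in N3, and CD36 0.919 and 3.09 times, so neither stepped up with the muscle markers in N8. PPARG was lower in both, at 0.457 and 0.356 times its level in N3. These are ratios of single samples and carry no replicate error. They are not adjusted for the FPKM total, which was 688747 in N3, 1.75234e+06 in N8 and 1.3102e+06 in N9. A size factor from the median gene ratio was 0.973 in N3, 0.987 in N8 and 1.02 in N9.

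N3 also exceeded the highest tumor sample by 13.4 times for PLIN1 and 12.2 times for CIDEC. The corresponding factors were 4.21 for PLIN5, 3.19 for LPL, 2.02 for PLIN4, 1.84 for CD36 and 1.64 for PPARG. Measured against the highest tumor, the excess of N3 was thus widest for PLIN1 and CIDEC, but the order depended on the tumor. Against T3 it was 46.0 times for PLIN4, 19.4 for PLIN1, 16.3 for LPL and 12.2 for CIDEC, and against T10 it was 354 times for CIDEC, 153 for PLIN4 and 37.5 for PLIN1, with PLIN5 listed at 0 in both tumors. N1, the non-tumor sample with the lowest muscle markers, had 2.56 times the PLIN1 of T1 but 0.937 times its CIDEC. From N1 to N3 the factor was 41.3 for CIDEC, 5.24 for PLIN1, 5.50 for LPL and 5.40 for CD36, but 1.34 for PLIN4, 2.88 for PLIN5 and 0.902 for PPARG, with 11.7 for the summed muscle markers.

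**Figure D4:**
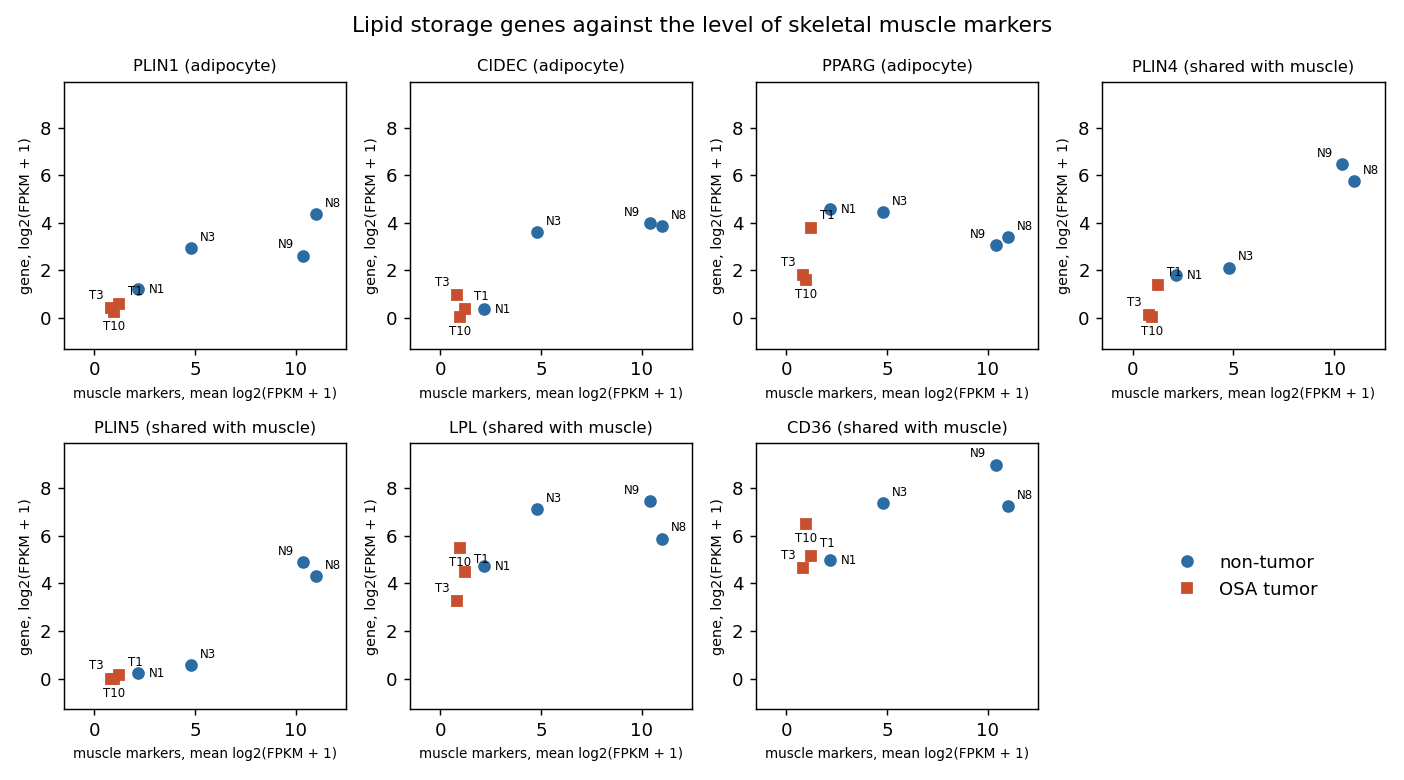
Each lipid storage gene, as log2(FPKM + 1), against the mean log2(FPKM + 1) of the 22 skeletal muscle markers in the 7 samples. PLIN4 and PLIN5 leave the low range only in N8 and N9, where the markers average 11.0 and 10.38, whereas PLIN1 and CIDEC are already high in N3, where the markers average 4.79.

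The perilipins also changed in their proportion to one another. PLIN5 was 0.133 times PLIN1 in N1 and 0.0734 times PLIN1 in N3, but 0.965 times in N8 and 5.62 times in N9. PLIN4 was 1.93 times PLIN1 in N1, 0.494 times in N3, 2.70 times in N8 and 16.8 times in N9, and in the tumors 3.27 times in T1, 0.208 in T3 and 0.121 in T10. T1, with few muscle markers, thus lay above N8 in this ratio. In N3 PLIN1 was therefore the most abundant of these 3 perilipins, and in N9 both PLIN4 and PLIN5 exceeded it. PLIN5 relative to PLIN4 was 0.358 in N8 and 0.334 in N9, near each other, and 0.0693 in N1, 0.148 in N3 and 0.0714 in T1. LPL relative to CD36 was 0.83 in N1 and 0.85 in N3, but 0.383 in N8 and 0.342 in N9, with 0.351 to 0.613 in the tumors.

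A measure of likeness over all 7 samples did not set the adipocyte genes apart from muscle. Each gene's log2 profile was scaled to mean 0 and SD 1, and its mean absolute distance, in SD, was taken to the mean profile of PLIN1 and CIDEC and to that of the muscle markers. For PLIN1 and CIDEC the gene itself was left out of the first profile, so each was compared with the other alone. They lay 0.328 from each other, and PLIN1 lay 0.323 and CIDEC 0.331 from the muscle markers. PLIN4 lay 0.393 from PLIN1 and CIDEC and 0.205 from the muscle markers, and PLIN5 lay 0.371 and 0.161 from them. These differences of 0.188 and 0.211 were smaller than their SD over the samples, 0.330 and 0.317. Within the 4 non-tumor samples both differences were 0.406, larger than their SD of 0.294, with PLIN4 and PLIN5 nearer to the muscle markers. CIDEC was there nearer to the muscle markers (0.441) than to PLIN1 (0.489), and PLIN1 lay 0.489 from CIDEC and 0.518 from the muscle markers. LPL (0.547 and 0.530) and CD36 (0.521 and 0.490) lay about as far from one profile as from the other, and both turned nearer to PLIN1 and CIDEC within the 4 non-tumor samples. PPARG was far from both, at 0.903 and 1.07. These distances are descriptions of 7 samples that include the genes' own contrast.

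The genes nearest in profile to PLIN1 and CIDEC were DARC, ZNF77, AP1B1, CAPN1 and ACKR4, at distances from 0.0658 to 0.176 over the 7 samples. DARC, a chemokine-binding receptor of red cells and venules, was the nearest, at 0.360 FPKM (N1), 3.91 (N3), 7.51 (N8) and 4.13 (N9), and at 0.0178 to 0.0623 FPKM in the tumors. ACKR4, another scavenging chemokine receptor, was at 0.334 FPKM in N1, 3.24 to 5.20 FPKM in N3, N8 and N9, and 0.0713 to 0.378 FPKM in the tumors. For ACKR4, as for CIDEC, N1 lay within the tumor range, whereas for DARC it lay above all tumors.

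Other genes of fat metabolism were described by lists. Of 59 genes present in 6 lists, 52 were tested, 6 were called lower in tumor and 0 higher, beside 3.58% of all genes tested called lower. Without both N8 and N9 0 of these 6 were called. The 1 list gene called there was RXRG, a retinoid receptor, higher in tumor and named after its values were seen, beside 184 of 13507 genes. RXRG was at 2.49 FPKM (N1), 2.82 (N3), 35.9 (N8) and 31.7 (N9), and at 18.4 FPKM (T1), 20.4 (T3) and 29.9 (T10). N8 and N9, left out of that fit, were thus above every tumor. With all 7 samples the difference of RXRG was 1.06 and did not pass. None of the lists held more than 2 called genes. The median log2 difference was -1.51 over 6 adipokine and adiponectin receptor genes tested, -0.76 over 13 of triglyceride and fatty acid synthesis, -0.63 over 9 of the droplet and lipolysis, -0.59 over 11 of fatty acid uptake and binding, and -0.37 over 10 adipogenic transcription factors. RARRES2 is listed with an interval that 11 genes share, LMF1 with one of 8, SLC2A4 with one of 19, PLIN3 with one of 7, and DGAT2 and GPIHBP1 each with one of 3, so the limit given for PLIN4 and PLIN5 holds for them as well. In the fatty acid uptake list PTRF and CAVIN1 are names of 1 gene.

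Among the secreted products, RETN (resistin) and RARRES2 (chemerin) were called lower. RETN was at 0.660 FPKM (N1), 63.1 (N3), 67.7 (N8) and 3.77 (N9), and at 0.288 to 0.774 FPKM in the tumors (log2 difference -3.23, SE 1.24). Its high samples N3 and N8 were also those with the most erythroid, macrophage and platelet markers. RARRES2 was at 6.36 FPKM (N1), 66.0 (N3), 30.2 (N8) and 23.5 (N9), and at 7.03 FPKM (T1), 14.5 (T3) and 0.136 (T10) (log2 difference -2.25, SE 0.98). With 1 sample left out, the call of RETN held only without N1 or N9 and that of RARRES2 only without N1 or T3. The difference of RARRES2 was -1.15 without T10. Leptin (LEP), the other hallmark adipocyte hormone, stayed between 0 and 1.88 FPKM and was under the filter. CFD (complement factor D, adipsin) and the receptor ADIPOR2 did not pass, at -1.70 and -1.31. CFD passed without N9 (-2.24), without T1 (-2.72) and with sample weights, and its difference was -1.19 without T3. ADIPOR2 passed without N1 (-1.76), and its difference was -0.70 without N9.

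Of the genes that release fat from the droplet, PNPLA2, the lipase of the initial step, was called lower. It was at 9.98 FPKM (N1), 55.6 (N3), 93.9 (N8) and 230 (N9), and at 12.3 FPKM (T1), 8.54 (T3) and 5.46 (T10) (log2 difference -2.70, SE 0.91). N1 lay below T1, and N9 was highest. The call was lost without T10 (-2.43), without both N8 and N9 (-1.41) and with the shared sample number as a block (-1.14). MGLL, the lipase of the last step, had a difference of -1.34 and CIDEA, a relative of CIDEC, of -1.09, and neither passed. MGLL passed without N1 (-1.65), without T10 (-1.69), with sample weights and with the random block, and was at -0.74 without T3. CIDEA passed without N1 (-1.71) and was at -0.53 without T1. The perilipins PLIN2 and PLIN3, found in most cell types, did not pass either. PLIN2 was at 7.68 FPKM (N1), 39.2 (N3), 31.9 (N8) and 145 (N9), and at 12.4 FPKM (T1), 68.1 (T3) and 30.4 (T10), with a log2 difference of -0.23 (SE 0.92). PLIN3 had a difference of -1.12, which was -0.23 without T10. T3 held more PLIN2 than N1, N3 or N8, unlike the order of PLIN1.

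Of the genes that build triglyceride, GPD1 and LPIN1 were called lower. GPD1, glycerol-3-phosphate dehydrogenase, was at 7.43 FPKM (N1), 14.6 (N3), 457 (N8) and 357 (N9), and at 1.33 to 6.65 FPKM in the tumors (log2 difference -4.26, SE 1.39). LPIN1, a phosphatidate phosphatase, was at 2.85 FPKM (N1), 11.2 (N3), 48.9 (N8) and 43.6 (N9), and at 2.08 to 3.74 FPKM in the tumors (log2 difference -2.30, SE 0.86). Both were highest in the muscle-rich samples N8 and N9, as PLIN4 and PLIN5 were. Without both of these the calls were lost, at -1.69 for GPD1 and -0.91 for LPIN1. The call of GPD1 was also lost without T3 or T10, and that of LPIN1 without N8, N9, T1 or T10. DGAT2, the enzyme of the final step of triglyceride synthesis, was instead similar in N3 (21.3 FPKM), N8 (35.2) and N9 (24.5), with 2.28 FPKM in N1 and 1.21 to 15.6 FPKM in the tumors, and did not pass at -1.58. DGAT2 passed without N1 (-2.35) or without T10 (-2.39), and its difference was -0.94 without T1. ELOVL6, a fatty acid elongase, had a difference of 1.18 and did not pass. It passed without N1 (1.43), without T3 (1.64), with no filter and with sample weights, and its difference was 0.72 without T10.

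For the uptake of fatty acids, LMF1, needed for the folding of LPL, was called lower (-1.31, SE 0.58). The call of LMF1 held only without T1 (-1.87) among the fits with 1 sample left out, and without T10 its difference was -0.86. It passed under 5 of the 11 other settings tried and was lost with no filter, an equal FPKM total, quantile normalization, either replicate block and without N8 and N9. ACSL1, which activates fatty acids, was at 10.3 FPKM (N1), 81.8 (N3), 81.1 (N8) and 130 (N9), and at 11.5 to 25.3 FPKM in the tumors, without passing at -1.60. GPIHBP1, which anchors LPL on capillary endothelium, was even across the non-tumor samples at 2.06 to 3.57 FPKM, with 3.77 FPKM in T1, 0.0480 in T3 and a listed 0 in T10, and did not pass at -1.22. GPIHBP1 passed without T1 (-1.96), with a pseudocount of 0.1 (-2.99) and with sample weights (-1.38), and was at -0.83 without T10. It thus did not share the spread of LPL within non-tumor tissue. FABP3, the muscle relative of FABP4, was at 112 FPKM (N1), 47.3 (N3), 67.5 (N8) and 823 (N9), and at 42.4 to 224 FPKM in the tumors, with a difference of -0.53 (SE 0.99). SLC2A4, the glucose transporter of fat and muscle, was at 43.8 FPKM in N8 and 46.5 FPKM in N9 but at or below 1.56 FPKM in all other samples, and did not pass at -2.38. Of the transcription factors, PPARGC1A (-1.60), KLF15 (-1.18), EBF2 (-0.88) and EBF1 (0.88) had the smallest p-values, and 0 of the 10 tested passed.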

How the data were processed

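RNAseq of 4 non-tumor and 3 OSA tumor samples was used. The deposited FPKM were computed by the authors with Cufflinks/Cuffdiff from reads trimmed with Trim Galore and aligned to CanFam3.1 with TopHat. Exact tool versions and the normalization between libraries are not given in the sources used here. A second deposited table, of the authors' group comparison (group FPKM, fold changes, test statistics, p and q), was read only for gene intervals, with 1 added to each start. No counts were analysed. The spacing of low FPKM gave a rough depth from 0.547 (N8) to 1.44 (T10) times that of N1, read from 20 of 1654 and 12 of 2411 genes compared. Between 11995 and 12624 genes reached 1 FPKM.

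On log2(FPKM + 1), all genes whose 7-sample mean reached 1 FPKM were fitted with limma 3.58.1 in R 4.3.3 (trend, moderated), and Benjamini-Hochberg adjustment covered all tested genes. Exact permutation tests used scipy 1.17.1 in Python 3.11.15, and figures matplotlib 3.10.9. The fitting step was tested on simulated data. The members and lists were chosen with earlier results of these data known. Named were all members, up to 4 genes of each pathway list by smallest p, FABP3, PLIN2, PLIN3 and GPIHBP1, and the 5 genes nearest in profile to PLIN1 and CIDEC. Marker lists covered skeletal muscle, endothelial, macrophage, erythroid, megakaryocyte and platelet, and osteoblast genes. Alternatives were a pseudocount of 0.1, other filters and scalings, no trend, sample weights, a replicate block and leaving out each sample. Leaving out N8 and N9 together was chosen after seeing the data.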

Additional observations from a re-analysis of the deposited data

Results flagged for a closer look

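Of 37 genes looked at within the 4 non-tumor samples, 2 had a sample far from the others, with a gap to the nearest sample beyond Dixon's critical value for 4 samples, as a share of the group's range on log2(FPKM + 1). CIDEC was at 0.273 FPKM in N1, a gap of 0.897 of the range, and ZNF77, one of the genes nearest to CIDEC in profile, was at 0.505 FPKM in N1, a gap of 0.914. On FPKM itself the gap was 0.751 for CIDEC, which is not past that value, and 0.84 for ZNF77, which is. Chance alone marks about 1 in 20 such groups.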

How the results depend on the processing

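No member changed direction under any alternative run. The count of 926 genes past the threshold became 1857 with sample weights, 184 without N8 and N9, 241 with a fixed replicate block, and 319 (without N8) to 1997 (without N1) with 1 sample left out, including 603 without T3 and 424 without T10. The 4 members past the threshold became 6 with a pseudocount of 0.1 or with sample weights, 3 without N8 and N9, 2 (without N8, T3 or T10) to 6 (without N1) with 1 sample left out, and 0 with the fixed block, which used N1, N3, T1 and T3 and where 0 members had an unadjusted limma p under 0.05. The labels call the non-tumor bone adjacent and matched to the tumors, but do not say that a shared number marks 1 dog. Deviations of the samples numbered 1 and 3 correlated at 0.422 and 0.211, and a random replicate block gave 5 members. Of the pathway genes 6 passed, 12 with sample weights, 2 with the fixed block (DIO2 and RXRG, both higher), 1 without N8 and N9 (RXRG), and 2 (without N8) to 15 (without N1) with 1 sample left out, with 3 without T10. RXRG was called only in fits that lacked both N8 and N9, its highest samples. The fixed block, T10 left out, and N8 and N9 left out each called 0 of the 6. With the fixed block their differences were -2.96 (RETN), -0.99 (RARRES2), -1.14 (PNPLA2), -1.38 (GPD1), -0.79 (LPIN1) and -0.56 (LMF1). PLIN5, which missed the threshold, passed with a pseudocount of 0.1 (-4.57), with the same sum of FPKM in every sample (-2.25) and with sample weights (-2.82), and PPARG passed with a pseudocount of 0.1 (-1.72), with sample weights and with the random block. PLIN5 was removed, and so not tested, where 3 samples had to reach 1 FPKM.

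Rescaling to the same sum moved the median of all genes to 0.122 and the share of lower calls from 52.2% to 64.5%, as higher calls went from 443 to 271 and lower calls from 483 to 493. That share was 31.3% without T3 and 29.7% without T10. Reversed log2 differences were 0.38 (PLIN3), 0.70 (PLIN2) and 0.30 (COX7A1) with the fixed block, 0.10 (PLIN2) with the random block, 0.06 (FABP3) with sample weights, and 0.72 (PLIN2), 0.03 (SLC2A4), 0.31 (FABP3) and 0.43 (COX7A1) without N8 and N9. With 1 sample left out, PLIN2 ranged from -0.91 to 0.45 (0.37 without T1) and FABP3 from -1.18 to 0.35 (0.01 without T3). The distance to PLIN1 and CIDEC minus that to the muscle markers changed sign for LPL from 0.017 to -0.161 (same sum) and -0.0764 (non-tumor samples alone), and for CD36 from 0.0311 to -0.0438 (non-tumor samples alone). The cause of these changes was not tested. Counts were not used here, so what depth allows at the lowest values was not tested. For T3 and T10, where PLIN5 was listed at 0, the depth was read as 1.23 and 1.44 times N1. These readings rest on 12 of 2267 and 12 of 2411 genes compared, too few to set the order of depth.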

Other observations

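Of the genes listed for brown fat, the heat-producing form of adipose tissue, UCP1 and DIO2 had higher means in tumor, and COX7A1, PRDM16 and ELOVL3 had lower means. UCP1, the uncoupling protein that defines brown adipocytes, was at 2.71 FPKM in N1 and 0.752 FPKM in N3 and was listed at 0 in N8 and N9, and was at 1.08 FPKM (T1), 17.0 (T3) and 2.77 (T10). Its log2 difference of 1.71 (SE 0.82) did not pass the threshold. UCP1 passed without N1 (2.11), without T1 (2.37) and with sample weights (1.96), and without T3, its highest sample, the difference was 0.81. DIO2, which activates thyroid hormone, also did not pass, at 1.20, but passed with the fixed replicate block (2.16), with the random block (1.5) and without T10 (2.11). The difference of DIO2 was 0.68 without T1 and 0.81 without T3. COX7A1, a respiratory chain subunit of heart, muscle and brown fat, was at 89.9 FPKM (N1), 44.2 (N3), 1083 (N8) and 1232 (N9), and at 71.8 to 102 FPKM in the tumors, and did not pass at -1.66. COX7A1 passed without N3 (-2.52), and its difference was -0.93 without N9. UCP1 and COX7A1 are each listed with an interval that 2 genes share. PRDM16 (means 0.427 FPKM in non-tumor and 0.0325 in tumor) and ELOVL3 (0.116 and 0.0626) were under the filter. Of the 5 brown fat genes present, 3 were tested and 0 passed in either direction, with a median of 1.20. UCP1 and DIO2, with non-tumor means of 0.867 and 0.587 FPKM, reached the filter through the tumor samples. This median is therefore not evidence about the list.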
